A study of Mus musculus with 10 samples.

Results

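Genes that mark the upper layers of the cerebral cortex were examined in the prefrontal cortex of Arid1b heterozygous (HT) mice and wild-type (WT) mice. The group was chosen by name, for known roles in upper-layer projection neurons, and holds 9 genes of the 18216 in the deposited expression table: Cux1, Cux2, Rorb, Lhx2, Pou3f2, Pou3f3, Mdga1, Rasgrf2 and Calb1. Arid1b encodes a subunit of the BAF complex, which moves nucleosomes along DNA. RNA was sequenced from 5 HT and 5 WT male mice of the C57BL/6N strain at postnatal day 10, with 1 library for each mouse and no treatment named in the labels. The HT mice carried 1 allele in which CRISPR/Cas9 with a nickase had removed exon 5 of Arid1b and truncated the protein in every tissue, and all mice came from HT fathers and WT mothers. The mice are named HT1 to HT5 and WT1 to WT5, and the numbers were not taken to pair mice across the genotypes.

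Projection neurons of the cortex are born in order, deep layers first, and the neurons born last settle above them as layers 2 to 4. Most neurons of layers 2 and 3 send axons to other cortical areas, many through the corpus callosum to the opposite hemisphere, whereas neurons of layer 4 receive much of the input from the thalamus. Of the genes, 6 encode transcription factors that set or mark these fates, and the others encode a surface adhesion protein, an activator of Ras and a calcium buffer.

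None of the 9 genes passed the test between genotypes after adjustment for all genes. On average 4 were higher in HT mice (Cux1, Mdga1, Rasgrf2 and Cux2) and 5 were lower (Lhx2, Pou3f2, Rorb, Pou3f3 and Calb1), with a median log2 fold change of -0.0071. The 2 largest differences of HT from WT means were those of Cux1 (10.6%) and Lhx2 (-9.4%), and HT and WT mice overlapped for both. All 9 confidence intervals (95%) lay within 25% of no difference, and 7 of them included no difference.

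Values are normalised counts, estimated reads per gene divided by a scaling factor for each library, and are given as mean ± SD over 5 mice. Differences were tested with limma on log2(value + 1) over 16781 genes whose mean reached 10, all 9 members among them, so fold changes are on that scale. Adjusted p-values (Benjamini-Hochberg) cover all 16781 genes, and 3 of those genes (0.0179%) had an adjusted p under 0.05. At an unadjusted p under 0.05 the share was 9.23% of all genes, and 2 of the 9 members (22.2%) met that limit. The groups did not overlap for 1.62% of all genes (0.703% with HT higher and 0.918% with HT lower) and for 0 of 9 members. Among all genes 48.8% had a fold change above 0, and their median log2 fold change was -0.0035.

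Arid1b checked the genotype labels. It had 1894 ± 86.6 normalised counts in HT and 2842 ± 142 in WT mice, 66.6% of the WT level, with a limma log2 fold change of -0.59 (SE 0.05, adjusted p = 9.96e-05). The library totals lay between 31106300 and 32106800 after scaling, and the number of reads behind them is unknown. The library of HT2 stood apart, with 8.43% of its total in mitochondrial genes against 5.15% to 6.76% in the others, and it had the lowest score for glutamatergic neuron markers (-1.38, the mean z-score over the list). HT5, WT3 and WT5 had striatum marker scores from -1.36 to -1.23, against 0.14 to 1.08 in the other 7 mice. Markers of cortical identity were present in every library, from Emx1 at 408 to 553 to Slc17a7, the vesicular glutamate transporter of cortical neurons, at 37828 to 52447 normalised counts.

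The group holds 4 paralogs in pairs, Cux1 with Cux2 and Pou3f2 with Pou3f3, and their coding sequences are shown because similar copies can exchange reads when RNA is assigned to genes. In both pairs the longest stretch identical between the transcripts was 23 bases, in coding sequence, and neither pair shared a word of 31 bases. The windows below are 75 bases each from GRCm38 with GENCODE M21 gene models, read 5′ to 3′ on the coding strand. Capitals mark the shared 23 bases. The Pou3f2 window is chr4:22487497-22487571 (minus strand, exon 1 of 1), the Pou3f3 window chr1:42697796-42697870 (plus strand, exon 1 of 1), the Cux1 window chr5:136312795-136312869 (minus strand, exon 15 of 24) and the Cux2 window chr5:121873809-121873883 (minus strand, exon 16 of 23).
Pou3f2: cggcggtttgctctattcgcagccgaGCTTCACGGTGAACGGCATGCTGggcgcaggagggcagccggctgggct
Pou3f3: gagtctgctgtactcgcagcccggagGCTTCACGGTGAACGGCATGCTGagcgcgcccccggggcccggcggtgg
Cux1: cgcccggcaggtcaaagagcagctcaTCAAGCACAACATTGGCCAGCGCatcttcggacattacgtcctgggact
Cux2: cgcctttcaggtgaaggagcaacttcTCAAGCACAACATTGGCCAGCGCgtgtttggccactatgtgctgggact
Over the whole window Cux1 and Cux2 had the same base at 60 of 75 positions, and Pou3f2 and Pou3f3 at 41 of 75. Outside the shared stretch, differences were spread through the Cux window on both sides.

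Cux1 and Cux2 encode homeodomain proteins with cut repeats, extra DNA-binding units, and control dendrite branching and spine formation in layers 2 to 4. The Cux1 gene (ENSMUSG00000029705, chr5:136248135-136567490, minus strand) also encodes CASP, a Golgi protein that shares the first part of the transcript and lacks the homeodomain, so its gene-level value sums different proteins. Cux1 had 3185, 3574, 3553, 3331 and 3332 normalised counts in HT1 to HT5, and 3540, 3136, 2808, 3022 and 2845 in WT1 to WT5. Every HT mouse was above the WT mean, and the groups overlapped through WT1 alone, which was nearly as high as the highest HT mice. The means were 3395 ± 165 and 3070 ± 294, with a log2 fold change of 0.15 (95% confidence interval 0.02 to 0.28). The limma p was 0.0314 and the adjusted p 0.51, and the exact two-sided permutation test over the mice gave p = 0.0714, where 5 against 5 can go no lower than 0.00794.

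Without WT1 the log2 fold change of Cux1 was 0.20 (limma adjusted p = 0.491), and with 1 mouse left out at a time it ran from 0.12 to 0.20. Of the astrocyte markers 14 of 14 were higher on average in HT mice, 8 of them at an unadjusted p under 0.05 and none after adjustment. Their summed level was 193583 to 248408 in HT and 179844 to 211173 normalised counts in WT mice. Their score was 1.48 in HT2, 1.14 in HT5 and 0.45 in HT4. In HT1 (-0.43) and HT3 (-0.36) it lay within the WT range of -1.04 to 0.03. With the astrocyte score as a covariate the log2 fold change of Cux1 was 0.09 (limma adjusted p = 0.976, the same for all 9 members). The unadjusted p of Cux1 was then no longer under 0.05, and the share of all genes under that limit fell from 9.23% to 4.70%. With the striatum score as a covariate Cux1 was also not under that limit, at 0.12 (limma adjusted p = 0.518), and the share of all genes was 9.84%. Across the 10 mice Cux1 had a Pearson r of 0.63 with the astrocyte score (permutation p = 0.052, adjusted p = 0.578 over 18 relations) and a Spearman rho of 0.72 (permutation p = 0.0236, adjusted p = 0.425). Without the 2 mice farthest from the median score r was 0.58.

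Cux2 (ENSMUSG00000042589, chr5:121856366-122050102, minus strand), whose expression in the cortex is more restricted to upper-layer neurons than that of Cux1, showed no such difference. It had 4652, 3955, 4438, 4311 and 4190 normalised counts in HT1 to HT5, and 4610, 4300, 4592, 3596 and 4313 in WT1 to WT5. The lowest 2 mice were of different genotypes, WT4 and HT2, and the HT range lay mostly within the WT range. The log2 fold change was 0.01 (limma adjusted p = 0.96), and the 95% confidence interval of the difference ran from -8.74% to 11.5%. Relative to glutamatergic neuron markers the log2 fold change of Cux2 was 0.09, but this scaling shifts the fold change of every gene by the same amount and put the median of all genes at 0.070, so values under it are to be read against that median. The log2 ratio of Cux1 to Cux2 in normalised counts, not per length, was -0.34 ± 0.14 in HT and -0.48 ± 0.18 in WT mice, and the difference of 0.14 did not exceed what mice of 1 genotype showed among themselves (p = 0.222 in an exact two-sided permutation test, also 0.222 when adjusted over both paralog pairs).

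**Figure D1:**
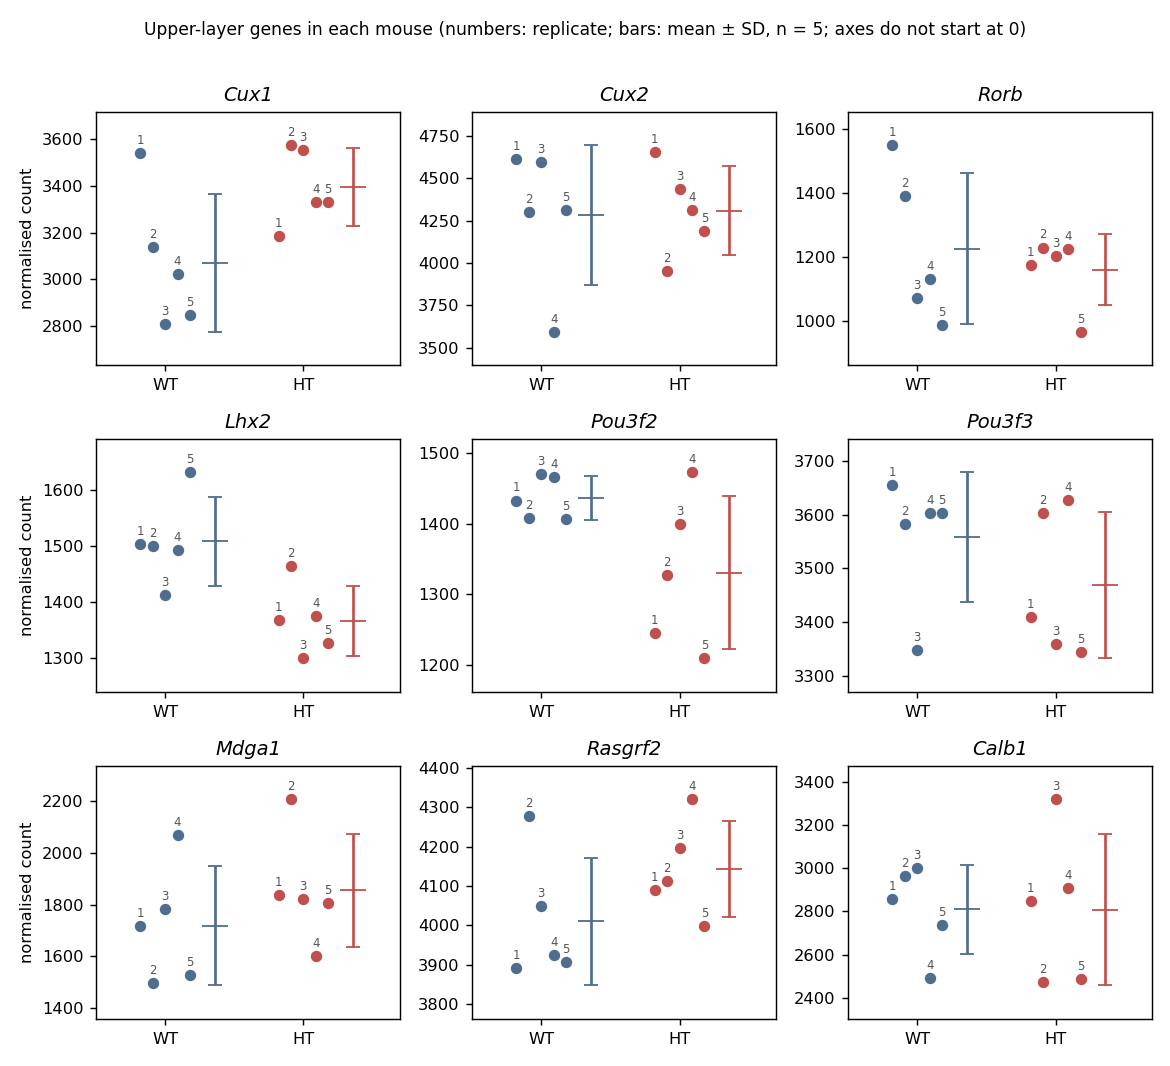
Normalised counts of the 9 genes (vertical axes, each with its own range that does not start at 0) in WT and HT mice, with 1 numbered point per mouse and the mean ± SD (n = 5) beside it. HT and WT points overlap in every panel, for Cux1 through WT1 alone and for Lhx2 through HT2 and WT3.

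Lhx2, Pou3f2 and Pou3f3 encode factors that act in the progenitors of the cortex and stay on in neurons of the upper layers. Lhx2 (ENSMUSG00000000247, chr2:38339281-38369733, plus strand) is a LIM-homeodomain protein that gives dorsal progenitors their cortical identity. It had 1368, 1464, 1298, 1375 and 1326 normalised counts in HT1 to HT5, and 1503, 1500, 1412, 1492 and 1632 in WT1 to WT5. All 5 HT mice were below the WT mean and 4 of them below the lowest WT mouse, with HT2 and WT3 as the only pair that crossed. The means were 1366 ± 62.8 and 1508 ± 78.9, with a log2 fold change of -0.14 (95% confidence interval -0.25 to -0.03). The limma p was 0.0146 and the adjusted p 0.482, and the exact two-sided permutation p was 0.0159.

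Lhx2 was the member whose unadjusted call held most often. The unadjusted limma p stayed under 0.05 in 22 of 23 alternative fits. The exception set each mouse against its own glutamatergic neuron markers, where the log2 fold change was -0.07 (limma adjusted p = 0.763). This scaling shifts every gene alike, and the median of all genes under it was 0.070. Of these 10 markers 8 were lower on average in HT mice, 1 of them at an unadjusted p under 0.05. Their summed level was 167354 to 192818 in HT and 160823 to 197623 normalised counts in WT mice. Their score was -1.38 in HT2 and -0.18 to 0.47 in the other HT mice, against -0.37 to 0.59 in WT mice. With 1 mouse left out at a time the log2 fold change of Lhx2 ran from -0.17 to -0.11. With the astrocyte score as a covariate the log2 fold change of Lhx2 was -0.19 (limma adjusted p = 0.976). In bulk tissue, fewer cells of a type and less RNA in each cell cannot be told apart.

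Pou3f2 and Pou3f3, also known as Brn2 and Brn1, are POU-domain factors that act together in the production and migration of upper-layer neurons. Pou3f2 (ENSMUSG00000095139, chr4:22482780-22488366, minus strand) had 1245, 1327, 1399, 1473 and 1209 normalised counts in HT1 to HT5, and 1433, 1408, 1470, 1467 and 1406 in WT1 to WT5. The WT mice lay close together, whereas the HT mice spread widely, with 4 below the lowest WT mouse and HT4 just above the highest. The coefficient of variation was 8.16% in HT and 2.15% in WT mice, a difference in spread that was not tested. The means were 1331 ± 109 and 1437 ± 30.9, with a log2 fold change of -0.11 (95% confidence interval -0.24 to 0.01, limma adjusted p = 0.55). With 1 mouse left out at a time it ran from -0.15 (without HT4, limma adjusted p = 0.428) to -0.08 (without HT5, limma adjusted p = 0.775). An unadjusted p under 0.05 was met for Pou3f2 in 3 of 23 alternatives, with the striatum score as a covariate (-0.14), without HT3 (-0.13) and without HT4. Relative to glutamatergic neuron markers the log2 fold change of Pou3f2 was -0.04 (limma adjusted p = 0.854), against a median of 0.070 over all genes. Without HT2 and HT5 it was -0.07 for Pou3f2.

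Pou3f3 (ENSMUSG00000045515, chr1:42695768-42703176, plus strand) had the smallest coefficient of variation of the 9 genes, 3.71% over the 10 mice. It had 3410, 3603, 3359, 3627 and 3343 normalised counts in HT1 to HT5, and 3655, 3583, 3347, 3603 and 3602 in WT1 to WT5. HT mice fell into a higher pair, HT2 and HT4, and 3 lower mice, and WT3 was the 1 WT mouse at the level of the lower 3. The log2 fold change was -0.04 (95% confidence interval -0.13 to 0.05, limma adjusted p = 0.782). The log2 ratio of Pou3f2 to Pou3f3 was -1.38 ± 0.10 in HT and -1.31 ± 0.07 in WT mice, and the difference of -0.08 did not pass either (p = 0.159 in an exact two-sided permutation test, 0.222 when adjusted over both pairs).

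Rorb (ENSMUSG00000036192, chr19:18930605-19111196, minus strand) encodes an orphan nuclear receptor that marks layer 4 neurons and takes part in the grouping of these cells around thalamic axons. It had 1177, 1231, 1205, 1226 and 968 normalised counts in HT1 to HT5, and 1550, 1392, 1074, 1131 and 988 in WT1 to WT5. Rorb varied most of the 9 genes, with a coefficient of variation of 14.8% and a 1.6-fold span from the lowest to the highest mouse. WT mice held both high and low values, and HT mice were near each other except HT5. The log2 fold change was -0.06 (95% confidence interval -0.31 to 0.18, limma adjusted p = 0.865), and without WT1 it was 0.025.

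The 3 mice with the lowest striatum marker scores, HT5, WT3 and WT5, were also the 3 lowest for Rorb, at 968 to 1074 against 1131 to 1550 normalised counts in the other 7. Rorb was the 1 member of 9 whose values did not overlap between these mice and the others, a pattern noticed after its values were seen. Of all 16781 genes 1.5% were lower in these 3 mice without overlap. Of the 14 striatum markers, 13 were higher on average in HT mice and 0 passed at an unadjusted p under 0.05, and their summed level was 7980 to 24570 in HT and 7002 to 19438 normalised counts in WT mice. With the striatum score as a covariate the log2 fold change of Rorb was -0.14 (limma adjusted p = 0.601). Within the 7 mice of higher score the Pearson r of Rorb with the score was -0.47 (exact permutation p = 0.29, adjusted p = 0.747 over 18 relations), with a Spearman rho of -0.61 (exact permutation p = 0.167, adjusted p = 0.595). Without the 2 of these mice farthest from the median score r was -0.50. The largest r of the 18 in size was that of Lhx2 with the striatum score in these 7 mice (r = -0.72, exact permutation p = 0.0724, adjusted p = 0.578), with a rho of -0.64 (exact permutation p = 0.139, adjusted p = 0.595). It was -0.07 without HT3 and HT4, so it rested on those mice. None of the 18 relations passed adjustment.

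Mdga1 and Rasgrf2 act at the cell surface and beneath it. Mdga1 (ENSMUSG00000043557, chr17:29827949-29970087, minus strand) is an immunoglobulin-domain adhesion protein held in the membrane by a lipid anchor, with roles in the migration of upper-layer neurons and in limiting inhibitory synapses through neuroligin. It had 1838, 2208, 1822, 1600 and 1805 normalised counts in HT1 to HT5, and 1716, 1496, 1781, 2069 and 1526 in WT1 to WT5. HT2 and WT4 were the highest mice of their groups, and the ranges covered each other over most of their length. The log2 fold change was 0.11 (95% confidence interval -0.09 to 0.31, limma adjusted p = 0.697). With 1 mouse left out at a time it ran from 0.05 (without HT2) to 0.18 (without WT4, limma adjusted p = 0.46), with 0.07 without WT2 and 0.07 without WT5. It was 0.19 relative to glutamatergic neuron markers, where the median of all genes was 0.070, and 0.04 without HT2 and HT5. Mdga1 lies on the same chromosome as Arid1b (chr17:4994332-5347656), and an effect of this position was not tested.

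Rasgrf2 (ENSMUSG00000021708, chr13:91880400-92131656, minus strand) encodes a calcium-responsive exchange factor that activates Ras. It had 4089, 4113, 4195, 4321 and 3999 normalised counts in HT1 to HT5, and 3891, 4278, 4050, 3924 and 3907 in WT1 to WT5. In WT1, WT4 and WT5 it was below all HT mice, and WT2 was second to HT4 alone. The log2 fold change was 0.05 (95% confidence interval -0.04 to 0.14, limma adjusted p = 0.707), the narrowest interval of the 9 genes. Relative to glutamatergic neuron markers the log2 fold change of Rasgrf2 was 0.12 (limma adjusted p = 0.592), against a median of 0.070 over all genes. Its coefficient of variation was 3.74% over the 10 mice.

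Calb1 (ENSMUSG00000028222, chr4:15881264-15908064, plus strand) encodes calbindin, a protein that buffers calcium in upper-layer pyramidal neurons, and also in some interneurons and in neurons of the striatum. It had 2848, 2473, 3319, 2907 and 2489 normalised counts in HT1 to HT5, and 2859, 2962, 3002, 2492 and 2736 in WT1 to WT5. The highest and the lowest mouse were both HT, and the WT mice lay between them. The means were 2807 ± 349 and 2810 ± 205, with a log2 fold change of -0.01 (limma adjusted p = 0.983). With the astrocyte score as a covariate the log2 fold change of Calb1 was 0.11, and it was 0.11 without HT2 and HT5.

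**Figure D2:**
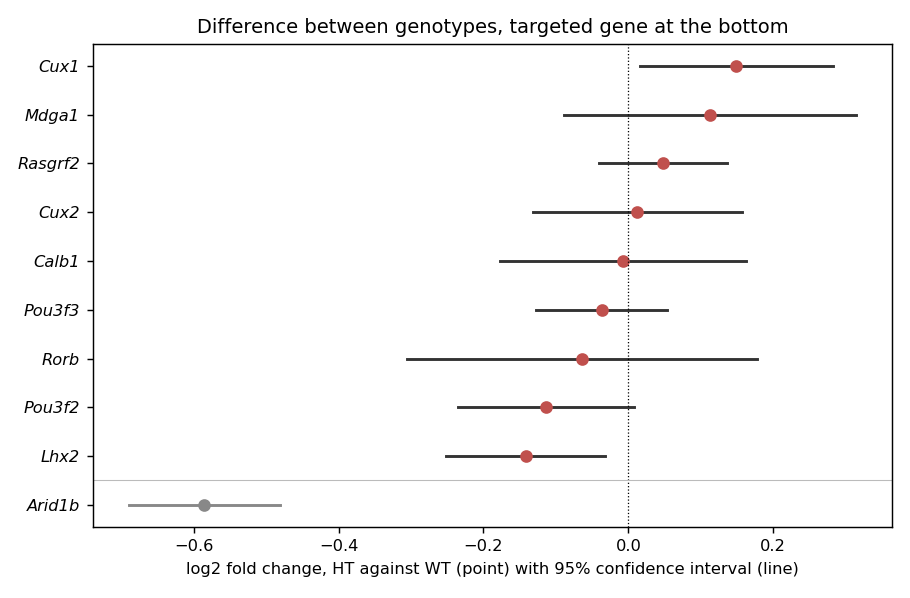
Log2 fold change of HT against WT mice (horizontal axis, points) with its 95% confidence interval (lines) for the 9 genes, in order of size, and for Arid1b at the bottom. The intervals of Cux1 (0.02 to 0.28) and Lhx2 (-0.25 to -0.03) leave out 0, the other 7 include it, and Arid1b lies at -0.59.

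Levels can be compared between genes only per length, here as normalised counts per kilobase of the union of annotated exons, averaged over the 10 mice. Calb1 was highest at 580 per kilobase (range 510 to 685), followed by Pou3f3 at 474, Rasgrf2 at 441 and Cux2 at 426. Pou3f3 overlapped Rasgrf2, Rasgrf2 overlapped Cux2, and Cux2 overlapped Lhx2, so neighbours in this stretch were not separated beyond the spread over mice. Lhx2 followed at 327 and Pou3f2 at 248, then Mdga1 at 188, Cux1 at 161 and Rorb at 108. Lhx2 did not overlap Pou3f2, whereas Pou3f2 overlapped Mdga1 and Mdga1 overlapped Cux1. The lowest Cux1 mouse (140.2) and the highest Rorb mouse (139.9) were almost level. These levels depend on the annotated length, which for Cux1 sums exons of 14 transcripts to 20024 bases.

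**Figure D3:**
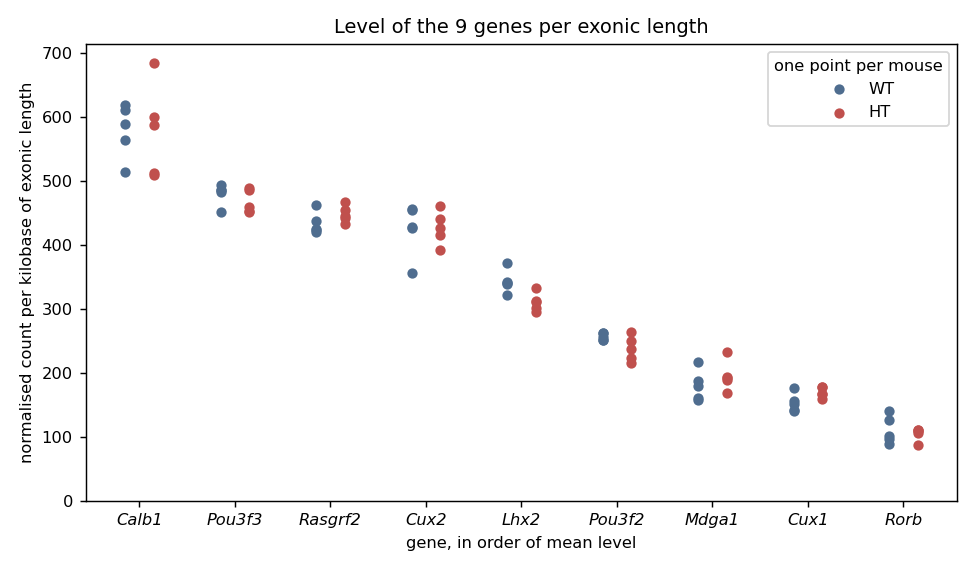
Normalised count per kilobase of exonic length (vertical axis, from 0) for the 9 genes in order of mean level, with 1 point per mouse, WT and HT side by side. Means run from 580 for Calb1 to 108 for Rorb, and the 2 genotypes overlap for every gene.

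The 9 genes did not move together from mouse to mouse. Of the 36 pairs of members 20 had a positive Pearson r across the 10 mice, the median r was 0.05, and 0 pairs passed adjustment. The highest was Lhx2 with Pou3f3 (r = 0.71, permutation p = 0.0241, adjusted p = 0.45), with a Spearman rho of 0.58 (permutation p = 0.088, adjusted p = 0.752) and an r of 0.71 without the 2 mice farthest from the median. Cux2 with Calb1 followed (r = 0.69, permutation p = 0.025, adjusted p = 0.45), with a rho of 0.55 (permutation p = 0.106, adjusted p = 0.752) and an r of 0.42 without such mice. HT5 was below the mean of all mice for 7 of 9 members and the lowest mouse for 3 (Rorb, Pou3f2 and Pou3f3), whereas HT3, HT4, WT1 and WT2 were each above the mean for 7. The summed level of the 9 genes was 22660 to 24589 in HT and 22796 to 24758 normalised counts in WT mice.

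**Figure D4:**
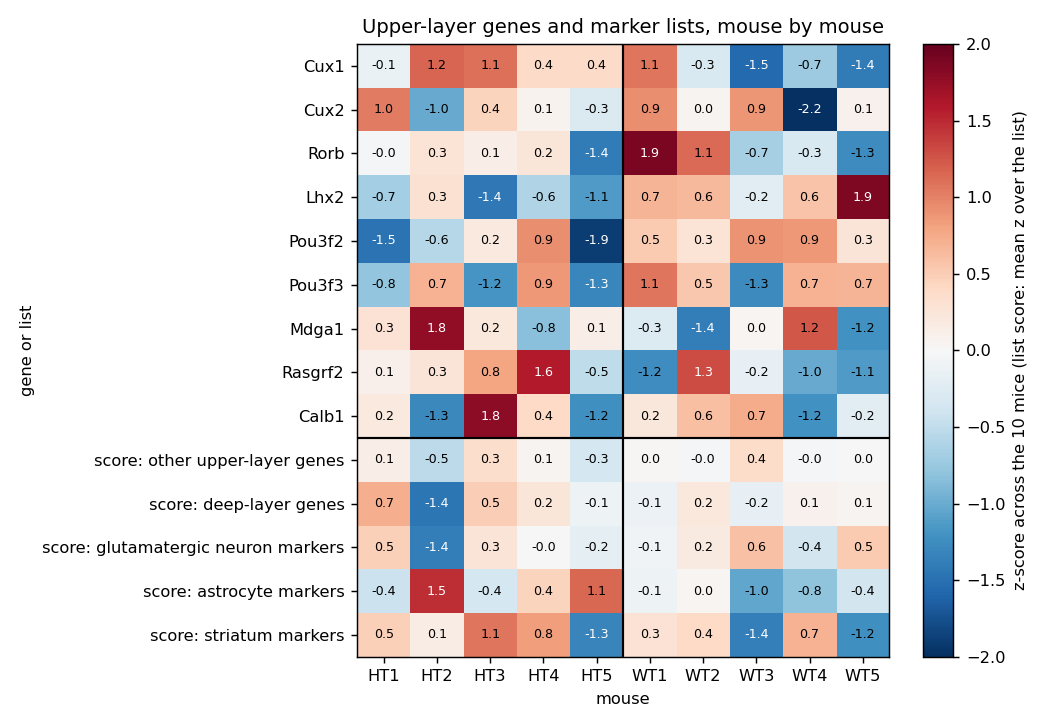
Z-score across the 10 mice (colour and printed value) of each of the 9 genes (rows above the line) and of 5 list scores (rows below), with HT mice in the left columns and WT mice in the right. HT2 has the lowest score for glutamatergic neuron markers (-1.38), and HT5, WT3 and WT5 have the lowest striatum marker scores (-1.36 to -1.23) together with the lowest Rorb values.

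Over 13887 other genes whose mean reached 50, those most like Cux2 across the 10 mice were Gm13306 (r = 0.96), Jph3, which encodes a junctophilin that joins membranes (r = 0.95), and the zinc-finger gene Klf13 (r = 0.93). Those most like Rorb were Gpatch8 (r = 0.95), Pacsin2, which encodes a protein of endocytosis (r = 0.92), and Ccar2 (r = 0.91). Those most like Calb1 were Actn1, an actin crosslinker (r = 0.97), Polr1a, the large subunit of RNA polymerase I (r = 0.93), and the kinase gene Fer (r = 0.93). With 10 mice, 11 genes had an r above 0.9 with Cux2, 3 with Rorb and 17 with Calb1, so these names describe the libraries only.

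A list of 30 other genes of upper-layer neurons gave a like picture. None passed adjustment (smallest adjusted p = 0.414, limma), 13 were higher and 17 lower in HT mice, and the median log2 fold change was -0.023. The unadjusted limit of 0.05 was met by 4 (13.3%), 1 higher against 4.71% of all genes and 3 lower against 4.52%. Otof and Nectin3 were those with the smallest p. Otof, which encodes the calcium sensor otoferlin, had 757 ± 37.3 normalised counts in HT and 611 ± 89.5 in WT mice (log2 fold change 0.32, SE 0.09, limma adjusted p = 0.414). Nectin3, an adhesion molecule, had 1518 ± 83.6 and 1733 ± 132 (log2 fold change -0.19, SE 0.06, limma adjusted p = 0.473).

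Markers of glutamatergic neurons and of cortical identity included Neurod6, a transcription factor of cortical projection neurons (log2 fold change -0.21, limma adjusted p = 0.55), and Emx1 of the dorsal forebrain (-0.10, limma adjusted p = 0.701). All 6 cortex identity markers were lower on average in HT mice, with a median log2 fold change of -0.08 and 1 of them at an unadjusted p under 0.05. Their score was -1.78 in HT2 and -0.22 to 0.47 in the other HT mice, against -0.18 to 0.78 in WT mice.

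Deep-layer genes were counted beside the upper-layer genes. Of 20 genes 10 were higher and 10 lower in HT mice, with a median log2 fold change near 0, 3 at an unadjusted p under 0.05 and 0 after adjustment. These were Ldb2 (log2 fold change -0.31, limma adjusted p = 0.51), Fezf2, the selector of subcerebral projection neurons (-0.27, limma adjusted p = 0.511), and Syt6 of layer 6 neurons (0.19, limma adjusted p = 0.528). A difference between the upper-layer and the deep-layer genes was not tested.

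Lists for other cells and regions had 0 genes past adjustment (limma). Of interneuron markers 10 of 16 were higher in HT mice, and the neuropeptide gene Npy did not overlap between groups (1831 ± 44.2 against 1632 ± 58.8 normalised counts, log2 fold change 0.17, limma adjusted p = 0.39), with Vip (-0.16) and Dlx2 (0.43) next. In each list the genes named are the 3 with the smallest p, not those of largest fold change. They were Ppp1r1b (0.68), Penk (0.71) and Adora2a (0.81) of the striatum markers, and Slc6a3 (0.77), Sp8 (0.57) and Pbx3 (0.39) of the olfactory bulb markers, 9 of 9 of which were higher on average. Of the astrocyte markers they were Fgfr3 (0.21), Aldoc (0.27) and Gjb6 (0.29). Gfap, the intermediate filament of astrocytes, named after its values were seen, had the largest fold change of that list (0.67, limma adjusted p = 0.511) and was its 1 gene without overlap between groups. Higher on average were also 10 of 10 oligodendrocyte lineage markers (Cspg4 0.18, Mog 0.54 and Mbp 0.44), 10 of 10 microglia markers (Trem2 0.45, C1qb 0.26 and C1qa 0.24), 6 of 8 endothelial markers (Ly6c1 0.22, Flt1 0.17 and Slco1a4 0.22) and 8 of 9 progenitor markers (Vim 0.37, Neurog2 0.83 and Mki67 0.24), each value a log2 fold change. Single mice stood apart in these lists. Microglia scores were 1.55 in HT2, 1.48 in HT5 and -0.76 to -0.11 in the other HT mice, against -0.93 to -0.05 in WT mice. Endothelial scores were 1.98 in HT2 and -0.79 to 0.46 in the other HT mice, against -0.61 to 0.09 in WT mice. Oligodendrocyte lineage scores were -2.13 in WT3 and -0.52 to 0.62 in the other WT mice, against -0.03 to 0.95 in HT mice. No marker was at 0 in all mice. The part of these differences in the results on the 9 genes was not tested beyond the striatum and astrocyte scores.

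**Figure D5:**
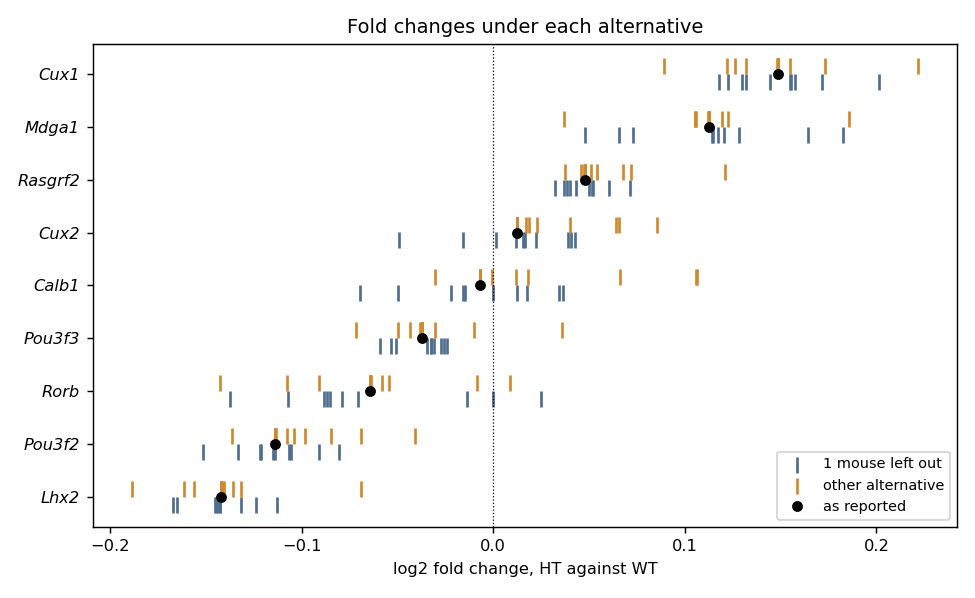
Log2 fold change of HT against WT mice (horizontal axis) for the 9 genes, as reported and under each alternative, with fits that leave out 1 mouse and other alternatives marked apart. Cux1 ranges from 0.09 to 0.22 and Lhx2 from -0.19 to -0.07 without reaching 0, whereas values for Calb1, Cux2, Rorb and Pou3f3 fall on both sides of it. The scaling to glutamatergic neuron markers shifts all genes alike, with a median of all genes of 0.070.

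Genes annotated over the members could affect the reads assigned to them. A430110C17Rik inside Cux1 and AC122898.1 over Pou3f3 lie on the same strand, and Gm16758 inside Mdga1 lies on the opposite strand, all 3 without overlap of exons. Gm16599 overlaps Cux1 exons on the opposite strand, and it was not among the genes analysed here.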

How the data were processed

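The authors made the expression table from stranded poly(A) RNA-seq libraries: per the labels and the study's methods, reads were quantified against GRCm38 with Salmon 1.1.0 and summed to genes, and estimated counts were divided by DESeq2 1.30.1 size factors. The deposited values are this normalised signal, not whole reads, so depth is unknown and no count test was run. All 18216 genes and 10 libraries were read. Genes with a mean of at least 10 were tested with limma 3.58.1 (R 4.3.3, moderated with a mean-variance trend) on log2(value + 1), HT against WT, with Benjamini-Hochberg adjustment at 0.05. The fit was tested on simulated data. Single values were also compared with an exact two-sided permutation test (scipy 1.17.1). P-values measure the spread between mice, 5 per genotype.

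The 9 members and all gene lists were chosen with earlier results of these data known. Genes named were Arid1b, all members, every gene past adjustment and the 3 smallest p in each list, the 3 genes most correlated with Cux2, Rorb and Calb1, and genes overlapping a member; 1 gene that this rule names is not reported here. A marker score is the mean z-score over a list. Correlations with the striatum score were taken within 7 mice because the scores formed separate clusters, a choice made after seeing the data. Alternatives were other pseudocounts (0.5 and 10), filters (none and 50) and scalings, no trend, sample weights, a replicate block, marker scores as covariates, an adjusted p of 0.1, and mice left out. Sequences and exonic lengths came from GENCODE M21 (GRCm38).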

Additional observations from a re-analysis of the deposited data

Results flagged for a closer look

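Among the 9 genes, 2 values lay far from the rest of their group by Dixon's criterion (critical value 0.71 for 5 samples), of 20 groups of 5 mice examined (these genes and Arid1b), where chance gives about 1 in 20. Rorb in HT5 was 968 normalised counts, below the other HT mice (1177 to 1231), with a gap that made up 0.796 of the range. Pou3f3 in WT3 was 3347 normalised counts, below the other WT mice (3583 to 3655), with a gap of 0.766 of the range. Both mice were among the 3 with low striatum marker scores. Without HT5 the log2 fold change of Rorb was -0.00026, and without WT3 that of Pou3f3 was -0.06.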

How the results depend on the processing

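The count of the 9 genes past adjustment was 0 in all 24 alternatives, and the 3 genes called among all genes were called in each. The number of members at an unadjusted p under 0.05, 2 as reported, was 1 relative to glutamatergic neuron markers, without the variance trend, with sample weights, with the replicate block, with the astrocyte score as a covariate and without HT2 and HT5, and 1 to 3 with single mice left out. It stayed 2 with the striatum score and without HT3, where Pou3f2 met the limit and Cux1 did not. The share of all genes at that limit also moved, from 4.70% with the astrocyte score to 10.9% without HT3, against 9.23% as reported. Members without overlap, 0 as reported, were 1 (Lhx2) without HT2 and HT5, and 0 to 1 with single mice left out, where removing the mouse that overlapped fixes the outcome. The share of all genes without overlap was not counted under these alternatives. Among the 30 other upper-layer genes the 4 became 7 with the replicate block and 2 with the astrocyte score, while the share of all genes at that limit went from 9.23% to 8.99% and 4.70%. The median log2 fold change of the members was 0.066 relative to glutamatergic neuron markers, where that of all genes was 0.070, and -0.049 to 0.036 with single mice left out.

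Differences changed sign for Calb1 with quantile normalisation (0.012), relative to glutamatergic neuron markers (0.066), with sample weights (0.018), with the astrocyte score (0.11) and without HT2 and HT5 (0.11), for Rorb (0.0087) and Pou3f3 (0.036) relative to glutamatergic neuron markers, and with single mice left out for Calb1 (-0.070 to 0.036), Rorb (-0.14 to 0.025) and Cux2 (-0.049 to 0.043). The scaling to glutamatergic neuron markers shifts all genes alike, which sets the sign changes under it. The cause of the others was not tested. Cux1 had an unadjusted limma p under 0.05 in 12 of 23 alternatives. Same-numbered mice had correlations of -0.04 to 0.10, 4 of 5 of them not over 0.1, so the numbers were not taken to pair the mice. As a hint from the data alone, 5 of 10 mice correlated best with their own number, where 2 of 10 would by chance. With the replicate block 3 genes were called as before.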
